A study of Mus musculus with 2 samples.

Results

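B cells of the mouse liver were described from the genes that a single-cell RNA-seq table of primary hepatocyte preparations lists for the cluster named "B cell". The preparations came from wild type BALB/c mice, fasted before collection, that were injected intraperitoneally once a day for 5 days with PBS or with recombinant IL-33 (0.5 µg), a cytokine of the IL-1 family. Liver cells were released by perfusion and digestion of the tissue, and 1 library was made for PBS and 1 for IL-33. Both libraries are pooled in the table, so every value below describes B cells of both treatments together. PBS and IL-33 were not compared, no value was tested, and the spread between animals cannot be given.

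The members were all genes whose row carries the cluster name "B cell". The table sets each of 12 clusters against the remaining cells and holds 3742 rows for 1755 genes. The B cell cluster was listed with 511 genes, or 29.1% of the 1755. The other clusters were 6 of non-hepatocytes (T cell, Kupffer cell, neutrophil, red blood cell, endothelial cell and HSC / fibroblast) and 5 of hepatocytes, numbered Hepatocyte1 to Hepatocyte5. For each gene the table gives 2 shares of cells, the share of the cluster's own cells in which its value exceeded 0 and the same share among all cells outside it. These shares are called the share inside and the share outside below. A share is the part of cells with a value above 0 and not a level of RNA per cell. The words detected and positive have that meaning below, and whether each such value was a counted UMI was not tested. Every row had at least 25% in the larger of its shares, so a gene that was not listed may still be present in B cells. Cell numbers, UMI depth and barcodes shared between libraries were not analysed here, and no counting interval is given. Because the clusters were built from expression in the same cells, a high share inside is a description of the cluster and not a finding about it.

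B cells carry a surface receptor made of immunoglobulin heavy and light chains, held together with a signalling pair, Cd79a and Cd79b. Binding of antigen sets off kinases of the Src, Syk and Tec families, and B cells also present peptides to T cells on MHC class II. When B cells become plasma cells, they switch to secretion of antibody, enlarge the endoplasmic reticulum (ER) and reduce many B cell genes under the control of Prdm1 and Xbp1.

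The B cell cluster held an estimated 2.19% of all cells, and the 5 hepatocyte clusters together held 90.0%. These sizes were solved from the shares themselves, since a gene listed for several clusters must have the same share over all cells in each row. They also give, for each gene, the percentage of all cells with a value above 0 that lay in the B cell cluster. The median of that percentage over the 511 genes was 3.84%. It was below 10% for 438 genes and at least 50% for 5 genes. Most listed genes were thus detected mainly in cells of other clusters.

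Shares inside ran from 4.5% to 98.4% with a median of 44.5%, and shares outside from 0.1% to 68.9% with a median of 27.8%. Over all 3742 rows the medians were 57.9% inside and 28.7% outside. A share inside of at least 50% was found for 214 genes, and of at least 80% for 36 genes. Only 36 genes had a share outside below 5%, whereas 290 genes were detected in at least 25% of the cells outside. For 27 genes the share inside was lower than the share outside.

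**Figure D1:**
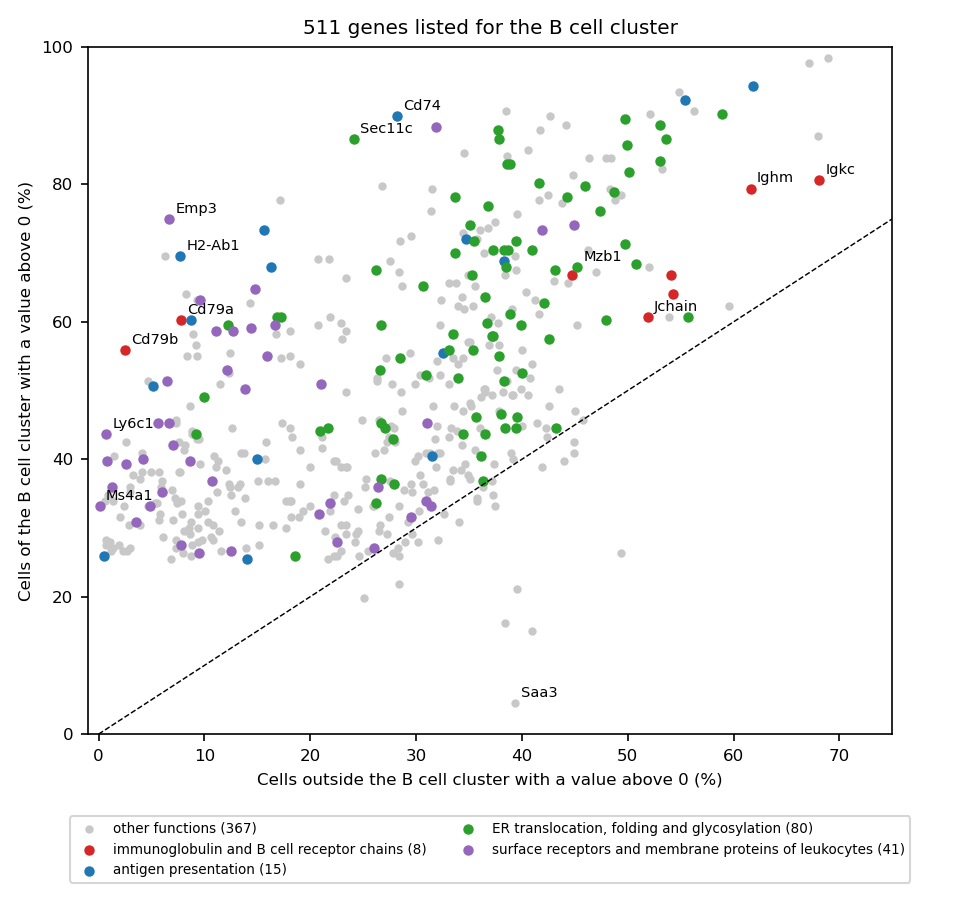
Share of cells with a value above 0 inside (y axis, %) and outside (x axis, %) the B cell cluster for the 511 listed genes, with 4 function groups in colour and the number of genes of each group in the legend. The dashed line marks equal shares. Cd79a, Cd79b and Ms4a1 lie at the left with few positive cells outside, whereas Igkc, Ighm and Jchain lie at the right, close to the line.

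All 5 B cell markers, Cd79a, Cd79b, Ms4a1, Ighm and Igkc, were listed for the cluster and for no other cluster of the table. The markers nevertheless fell into 2 patterns by their shares outside. Cd79a (Igα, at chr7:24897381-24902197 of GRCm38, 5 exons in the longest transcript) was detected in 60.3% of the cells inside and 7.8% outside. Cd79b (Igβ, chr11:106311341-106314762, 6 exons) had 55.9% inside and 2.5% outside. Ms4a1 (CD20, chr19:11249675-11266241, 7 exons), a membrane protein of mature B cells that plasma cells lack, had 33.2% inside and 0.1% outside. These 3 genes were rarely detected outside the cluster.

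Of all cells positive for Ms4a1, 88.1% lay in the B cell cluster. Because shares are given to 3 decimals, that value lies between 83.2% and 93.7% from rounding alone. The corresponding values were 33.3% for Cd79b and 14.7% for Cd79a. A low share outside therefore still left most Cd79a-positive and Cd79b-positive cells outside the cluster, given how few cells the cluster holds.

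The immunoglobulin chains differed from these genes. Ighm, the constant region of the µ heavy chain (chr12:113418558-113422730), was detected in 79.4% of the cells inside and 61.6% outside. Igkc, the constant region of the κ light chain (chr6:70726435-70726966, a single exon), had 80.6% inside and 68.1% outside. Of the Ighm-positive cells 2.80% lay in the B cell cluster, and of the Igkc-positive cells 2.58%, values close to the 2.19% of cells that the cluster holds. The λ constant regions had 66.8% inside and 44.7% outside for Iglc2, 66.8% and 54.1% for Iglc3, and 64.0% and 54.3% for Iglc1. Jchain, which joins IgM and IgA into polymers and marks antibody-secreting cells, had 60.7% inside and 51.9% outside. These 6 genes were thus detected in a large part of the cells of other clusters.

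Many of the cells outside with a value above 0 for these genes were hepatocytes. Even if every cell of the other 6 non-hepatocyte clusters, 7.96% of all cells, had been positive, at least 65.3% of the hepatocytes had a value above 0 for Igkc. The same lower bound was 58.2% for Ighm, 47.6% for Jchain and 39.8% for Iglc2, whereas for Cd79a, Cd79b and Ms4a1 it was 0%. Only Iglc3 was listed for a hepatocyte cluster, Hepatocyte1, where its share was 60.3%. Whether these values above 0 were counted UMIs, and whether RNA released from other cells had a part in these shares, was not tested. Iglc2 and Iglc3 are close copies, so how reads were divided between them is uncertain.

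Of the 18 immunoglobulin and receptor chain genes on a list written for this family, 8 were in the table and all 8 were listed for the B cell cluster. No other non-hepatocyte cluster listed any of them. Ighd, Ighg and Igha genes, which would separate IgM-bearing from class-switched cells, had no row in the table. That says only that they were outside the genes compared or under the limits of the listing.

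**Figure D2:**
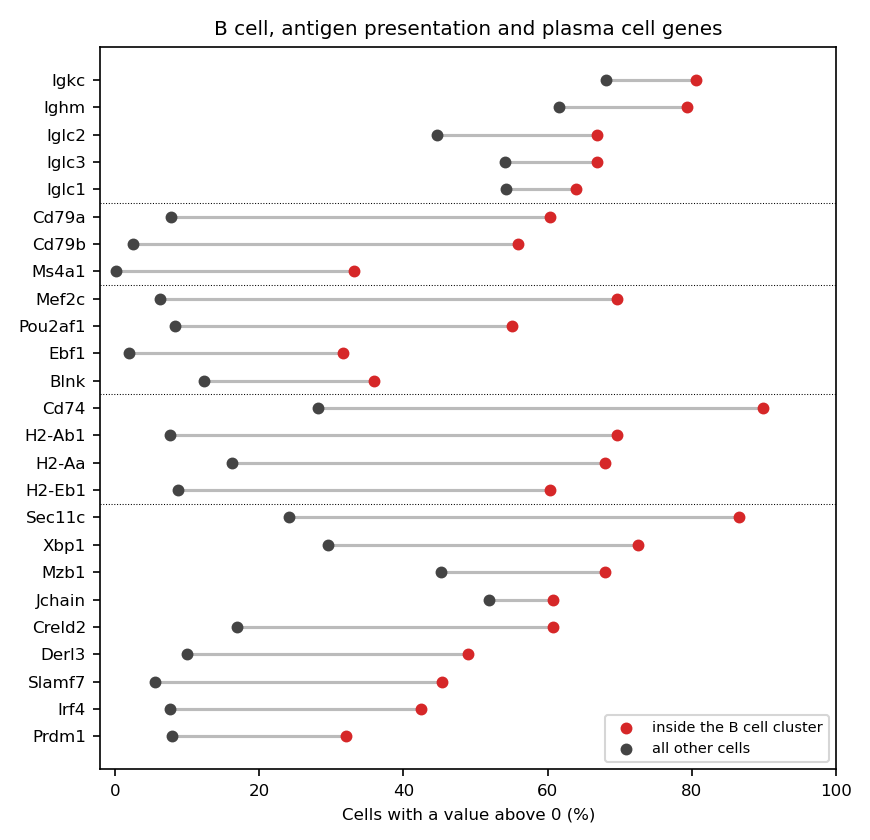
Share of cells with a value above 0 inside the B cell cluster (red) and among all other cells (dark grey), in % on the x axis, for 25 named genes. The groups from top to bottom are immunoglobulin chains, receptor and surface genes, B cell regulators and the adaptor Blnk, MHC class II genes, and plasma cell genes. Light chain genes and Jchain have short lines, with shares outside of 44.7% to 68.1%, and Mef2c and H2-Ab1 have the longest lines of the regulators and MHC class II genes.

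Transcription start regions are shown for 3 of the genes, because Cd79a is a marker of the cluster, and Blnk and the tetraspanin gene Tspan13 (63.2% inside and 9.6% outside) were picked because their regions hold the octamer, an element that Oct factors can bind. The match is a description of the letters and says nothing about binding. The sequences are from RefSeq on GRCm38.p6, the C57BL/6J reference and not the BALB/c strain of the mice, each from 250 bases before to 50 bases after the annotated start, written 5′ to 3′ on the strand of the gene. Capitals mark the octamer ATGCAAAT, here on the opposite strand. The regions are chr7:24897247-24897546 on the plus strand for Cd79a, chr19:40994172-40994471 on the minus strand for Blnk and chr12:36042429-36042728 on the minus strand for Tspan13.
Cd79a: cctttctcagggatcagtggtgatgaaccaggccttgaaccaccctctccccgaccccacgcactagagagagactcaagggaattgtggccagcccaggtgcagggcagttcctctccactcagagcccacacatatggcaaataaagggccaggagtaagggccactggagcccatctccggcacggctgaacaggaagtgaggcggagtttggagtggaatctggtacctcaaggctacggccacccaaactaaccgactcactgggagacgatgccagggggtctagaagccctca
Blnk: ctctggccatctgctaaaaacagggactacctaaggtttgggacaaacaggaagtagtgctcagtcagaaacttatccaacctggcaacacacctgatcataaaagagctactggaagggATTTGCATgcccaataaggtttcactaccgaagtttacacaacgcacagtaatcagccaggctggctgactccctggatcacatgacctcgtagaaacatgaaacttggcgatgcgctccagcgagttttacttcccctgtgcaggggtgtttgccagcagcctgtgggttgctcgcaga
Tspan13: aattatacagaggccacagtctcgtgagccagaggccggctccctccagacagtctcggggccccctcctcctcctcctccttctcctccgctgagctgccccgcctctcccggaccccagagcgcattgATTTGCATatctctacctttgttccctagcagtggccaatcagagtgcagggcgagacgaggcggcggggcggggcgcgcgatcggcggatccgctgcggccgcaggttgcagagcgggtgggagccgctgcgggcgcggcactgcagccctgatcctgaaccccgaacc
On either strand the octamer was found in the start regions of 1.97% of 27025 genes and in 8 (2.02%) of the B cell genes with a start region. CCCNNGGG, the core bound by Ebf1, was found in 15.4% and in 84 (21.2%). Both comparisons are void, since only 396 of the 511 B cell genes (77.5%) had a start region in the table. Neither motif was found in the Cd79a region, which says only that those letters are not in that window.

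Genes of the B cell surface had higher shares inside than outside, and most were shared with other leukocytes. Of 30 listed surface proteins and co-receptors, 13 were in the table and 10 of these were listed for B cells, with medians of 39.5% inside and 5.1% outside. Ms4a1 and Fcrla, an intracellular Fc receptor homologue of B cells with 30.8% inside and 3.5% outside, were listed for no other cluster. Cd37, a tetraspanin of B cells, had 39.3% and 2.6%, against 64.2% of T cells. Cd24a, a glycosyl-anchored protein of immature leukocytes and red cell precursors, had 59.1% and 14.4%, against 98.8% of the red blood cell cluster.

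Cd52, a small glycosyl-anchored protein of lymphocytes, reached 88.3% inside with 31.9% outside, and the T cell cluster 95.9%. Ly86, which partners the receptor homologue RP105, had 40.1% and 4.2%, with 56.0% in Kupffer cells. Cd38, an ectoenzyme, had 35.2% and 6.0%, Cd53, a tetraspanin, 51.4% and 6.5%, and Cd2, an adhesion receptor of lymphocytes, 39.7% and 0.8%. Fcgr2b, the inhibitory Fc receptor that limits B cell receptor signals, had 33.6% and 21.9%. It was also on the list of sinusoidal endothelial markers and was found in 33.3% of the endothelial cluster and 26.2% of Kupffer cells. Cd22, Cr2 and Fcer2a had no row in the table.

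Kinases, adaptors and phosphatases of receptor signalling were listed. Of 36 genes on the signalling list, 19 were in the table and 14 of these were listed for B cells, Cd79a and Cd79b included, with medians of 42.3% inside and 13.4% outside. Ptprc (CD45), the phosphatase that keeps Src kinases ready, had 64.8% and 14.8%, and its partner Ptprcap 42.1% and 7.0%. Lyn, the Src kinase that phosphorylates Cd79a and Cd79b, had 42.5% and 27.3%. Syk, which binds the phosphorylated pair, had 43.3% and 18.3%. Lyn and Syk were thus detected in nearly equal shares of the cluster, with a higher share outside for Lyn.

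Blnk, the adaptor downstream of Syk, had 36.0% inside and 12.4% outside and was listed for no other cluster. Btk, the Tec kinase it recruits, had 34.0% and 7.8%, with 26.5% in Kupffer cells. Rasgrp3, which activates Ras after receptor binding, had 34.0% and 0.6% and was listed for no other cluster. Of all Rasgrp3-positive cells, 55.9% lay in the B cell cluster. Blnk, Rasgrp3, Cd79a and Cd79b were the 4 signalling genes listed for B cells and for no other non-hepatocyte cluster.

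Malt1, a scaffold that leads to NF-κB, had 38.5% inside and 12.0% outside, and Nfkb1 itself 33.2% and 26.0%. Rac2, a GTPase of blood cells, had 62.8% and 14.3%, below the T cell share of 81.8%. Ptpn6 (SHP-1), the phosphatase recruited by inhibitory receptors, had 37.2% and 25.3%. Shisa5 had 59.5% and 16.7%. Over the whole signalling list of 36 genes, 11 were listed for T cells and 9 for Kupffer cells, some of them not for B cells.

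Transcription factors of the B lineage ranged from 1.5% to 45.8% in their shares outside. Of 34 listed factors, 18 were in the table and 15 were listed for B cells, with medians of 40.9% inside and 10.6% outside. Mef2c, which acts downstream of the receptor in B cell growth, had 69.6% and 6.3%, the second largest difference of all 511 genes. Pou2af1 (OBF-1), the co-activator of octamer factors, had 55.1% and 8.4%. Ebf1, which opens the B lineage programme, had 31.6% and 2.0%, and 26.1% of its positive cells lay in the cluster. None of these 3 genes was listed for another cluster.

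Pou2f2 (Oct-2) had 40.5% inside and 1.5% outside, and 37.6% of its positive cells lay in the B cell cluster. It was also listed for T cells (41.2%) and Kupffer cells (29.5%). Ikzf1, a factor of all lymphocytes, had 38.1% and 5.0%, and Spi1 (PU.1) 38.9% and 11.1% with 69.6% in neutrophils. Tcf4 (E2-2) had 58.7% and 18.1%, Irf8 27.5% and 15.2%, Ets1 28.7% and 10.6%, and Klf2, a factor of resting lymphocytes, 40.9% and 31.3%. Btg2 had 50.2% and 39.9%. Zbtb20 was detected equally inside and outside, with 45.7% and 45.8%. Factors shared with other leukocytes thus sat beside those listed for B cells alone. Pax5 and Bcl6 had no row.

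Most plasma cell genes in the table were listed for B cells. Of 18 genes on the plasma cell list, 14 were in the table and 13 of these were listed for B cells, 9 of them for no other non-hepatocyte cluster, with medians of 53.0% inside and 16.9% outside. Prdm1 (Blimp-1), which ends the B cell programme, had 32.0% and 7.9%, and Irf4, which induces it, 42.5% and 7.6%. Xbp1, the factor that expands the ER, had 72.5% and 29.5%, and was also found in 63.8% of Hepatocyte4. Prdm1 and Irf4 were listed for no other cluster.

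Sec11c, a subunit of the signal peptidase, reached 86.6% inside and 24.1% outside, the third largest difference of the list. Mzb1, an ER chaperone for IgM, had 68.0% and 45.2%. Creld2, an ER stress protein, had 60.7% and 16.9%, Derl3, a channel part of ER-associated degradation, 49.0% and 10.0%, Fkbp11, a prolyl isomerase, 52.2% and 30.9%, and Edem1, a mannose-binding degradation factor, 59.5% and 39.9%. Slamf7, a surface receptor of plasma cells, had 45.3% and 5.6%. Ly6c2 had 53.0% and 12.1%, and Slpi, a secreted protease inhibitor, 30.4% and 16.5%. Sdc1 (CD138), the usual surface marker of plasma cells, was listed for Hepatocyte4 and Hepatocyte5 and not for B cells.

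Genes of mature B cells and of plasma cells thus stood together in 1 cluster. Shares do not tell whether the same cells held both, but they limit it. At least 46.9% and at most 60.3% of the cluster was positive for both Cd79a and Sec11c. For H2-Ab1 and Xbp1 the limits were 42.1% and 69.6%, and for Cd74 and Sec11c 76.5% and 86.6%. For Ms4a1 with Prdm1 they were 0% and 32.0%, and for Ms4a1 with Jchain 0% and 33.2%, so those pairs may lie in different cells or the same ones. Sec11c and Xbp1 were not particular to this cluster, with Sec11c in 66.2% of T cells and 62.5% of red blood cells, and Xbp1 in 35.8% of Kupffer cells. With Prdm1 and Irf4, listed for no other cluster, the lower limits were 0% and 2.8% for Cd79a, and 21.9% and 32.4% for Cd74. Both limits were 0% for Cd79b, Ms4a1 and Ebf1, and they were 1.6% and 12.1% for H2-Ab1. Cd74 was not particular to the cluster either, with 28.2% outside and 66.9% in Kupffer cells. The pairs were chosen after their shares were seen.

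The ER was the largest function group of the list, when the 511 genes were sorted by function after the list was seen. It held 80 genes (15.7%) of protein translocation, folding, glycosylation and degradation, with medians of 60.7% inside and 37.3% outside. Only the 511 genes were sorted, so the share of ER genes among all 1755 listed genes is not known. Translocation was represented by Sec61b with 90.3% and 58.9% and Ssr4 with 83.4% and 53.0%, and signal peptide removal by Spcs2 with 83.0% and 38.6%. Chaperones included Hsp90b1 with 89.5% and 49.7%, Hspa5 (BiP) with 81.8% and 50.1%, and Calr with 80.2% and 41.6%. Disulphide isomerases included Pdia4 with 71.7% and 39.4%. These genes were detected in most cells of the cluster and in many others.

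Of the 80 ER genes, 29 were listed for no other non-hepatocyte cluster, out of 81 such genes in all, and 41 were also listed for a hepatocyte cluster. Over all 511 B cell genes, 97 (19.0%) were listed for a hepatocyte cluster. In Hepatocyte5, which shared 32 ER genes, 31 had a higher share than in B cells, for example 100% for Hspa5. In T cells, which shared 33, 32 had a higher share in B cells, with medians of 70.4% and 49.3%. In Kupffer cells all 20 shared ER genes had a higher share in B cells, with medians of 70.4% and 38.4%. Over all genes shared with T cells, B cells were higher for 142 of 311, and over all shared with Kupffer cells for 142 of 231. The HSC / fibroblast cluster had the higher share for all 18 it listed. Shares depend on the UMI depth of the cells of each cluster, which was not analysed here.

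MHC class II genes were listed for B cells and Kupffer cells and for no other non-hepatocyte cluster. All 8 genes of the MHC class II list that were in the table were listed for B cells, with medians of 68.4% inside and 15.3% outside. Cd74, the invariant chain, had 89.9% and 28.2%. H2-Ab1 had 69.6% and 7.7%, H2-Aa 68.0% and 16.3%, and H2-Eb1 60.3% and 8.7%, the chains of the presenting molecules. H2-DMa and H2-DMb2, which load the peptide, had 40.1% and 15.0%, and 25.9% and 0.5%. Kupffer cells listed 7 of the 8, and H2-DMb2 was the exception.

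For 6 of those 7, the share was higher in B cells than in Kupffer cells, for example 69.6% against 32.5% for H2-Ab1 and 89.9% against 66.9% for Cd74. Ctss, the protease that cuts the invariant chain, went the other way with 73.3% against 87.1%, and had 15.6% outside the B cell cluster. Ifi30, a lysosomal thiol reductase, had 68.8% inside and 38.3% outside. Outside the fixed list, Napsa, an aspartic protease, had 50.6% and 5.1% and was listed for B cells alone. Class I genes had high shares on both sides, H2-D1 with 94.3% inside and 61.8% outside and H2-K1 with 92.3% and 55.4%. Genes of the H2 family are close copies, and the division of reads among them is uncertain.

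The migration genes listed for B cells were also listed for other non-hepatocyte clusters, as were most of the 511 B cell genes. Of 27 genes for chemokine receptors, adhesion and movement, 16 were in the table, 12 were listed for B cells and 0 for B cells alone. Over all 511 B cell genes, 81 (15.9%) were listed for no other non-hepatocyte cluster. T cells listed all 16. The medians were 43.5% inside and 10.1% outside. Cxcr4, the receptor for Cxcl12, had 39.7% and 11.3%, and Selplg, a ligand of selectins, 44.5% and 12.6%. Among integrins, Itga4 had 64.0% and 8.3%, Itgb1 47.0% and 34.4%, Itgb2 35.2% and 6.1%, and Itgal 30.4% and 10.8%. Itga4 was the integrin with the highest share inside, and the share in T cells was 57.4%.

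Actin regulators included Coro1a with 63.2% inside and 9.3% outside, Arhgdib with 69.2% and 20.7%, Cytip with 60.7% and 21.9%, Arhgap15 with 42.5% and 2.6%, and Dock2, which activates Rac in moving lymphocytes, with 33.2% and 2.4%. For Coro1a, Arhgdib, Arhgap15 and Dock2 the T cell share was higher, at 80.4%, 85.1%, 52.0% and 59.5%. Among all 71 cytoskeletal genes of the list, 60 were also listed for T cells, with the higher share in T cells for 43 of them.

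Cytokine and TNF family genes were few. Of 21 on the list, 7 were in the table and 5 were listed for B cells, all shared. Tnfrsf13b (TACI), a receptor for the survival factors Baff and April, had 58.7% inside and 12.7% outside, with 33.1% in T cells. Ltb, which shapes lymphoid tissue, had 29.1% and 8.6%, well under the 85.8% of T cells and 64.1% of neutrophils. Il10rb had 32.0% and 20.8%, Ifngr1 27.9% and 22.5%, and Traf3ip3 37.7% and 3.3%. The genes for the IL-33 receptor, Il1rl1 and Il1rap, were not listed for the B cell cluster, and may still be present in B cells.

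Of 12 germinal centre genes, 3 were in the table and 2 were listed for B cells, Cxcr4 and Mki67. Mki67, a marker of cycling cells, had 42.5% inside and 15.8% outside, against 92.5% of the red blood cell cluster and 25.7% of T cells. Of 20 proliferation genes, 17 were in the table, 7 were listed for B cells and all 17 for red blood cells. The others were H2afz with 83.8% and 47.9%, Tubb5 with 59.5% and 32.3%, Hmgb2 with 53.0% and 39.4%, Pcna with 35.6% and 31.7%, Tuba1b with 35.6% and 28.9%, and Stmn1 with 27.9% and 30.2%. Their shares inside lay near those outside for Pcna, Tuba1b and Stmn1. Of 20 immediate early genes, which are often raised by tissue digestion, 8 were in the table. Of these, 1 was listed for B cells, Btg2, and 7 for Kupffer cells. Being listed is not the same as having a raised share. Egr1 was detected in 25.2% of Kupffer cells against 47.0% of the cells outside that cluster, and Fos in 32.5% of both. Junb, Dusp1, Klf6 and Rgs1 had higher shares in Kupffer cells than outside.

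**Figure D3:**
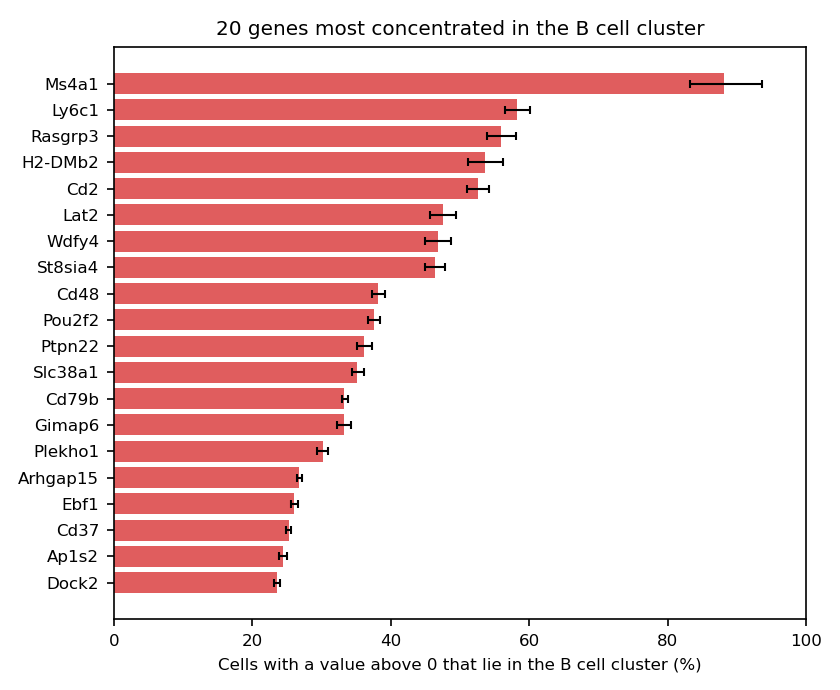
Percentage of all cells with a value above 0 that lay in the B cell cluster (x axis, %) for the 20 genes with the highest values; bars start at 0 and error bars show the range that rounding of the shares to 3 decimals allows, not counting error. Ms4a1 stands apart at 88.1%, 4 further genes exceed 50%, and Cd79b lies at 33.3%.

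The genes whose positive cells lay most in the cluster were not all known B cell genes. After Ms4a1 came Ly6c1, a surface protein of the Ly6 family, with 43.7% inside, 0.7% outside and 58.3% of its positive cells in the cluster. Rasgrp3 (55.9%), H2-DMb2 (53.7%) and Cd2 (52.6%) followed. Lat2, an adaptor of B cells and mast cells, had 28.3% inside and 0.7% outside, with 47.5% of positive cells in the cluster. Wdfy4, a gene of antigen-presenting cells, had 27.5% and 0.7%, with 46.8%. St8sia4, a sialyltransferase, had 34.8% and 0.9%, with 46.4%. Cd48, a ligand of the SLAM family, had 36.0% and 1.3%, with 38.2%. Reads of Ly6c1 and Ly6c2, close copies, may be divided uncertainly.

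The largest differences between both shares belonged to genes of general leukocyte function as well as B cell genes. Emp3, a membrane protein of the PMP22 family, led with 74.9% inside and 6.7% outside, followed by Mef2c and Sec11c, H2-Ab1, Cd74, and Tmsb10, an actin-binding peptide, with 77.7% and 17.1%. Ctss, Cd52, Itga4 and Coro1a completed the first 10. The highest shares outside belonged to Rack1, a ribosome scaffold, with 98.4% and 68.9%, and to Igkc, Ubb with 87.0% and 68.0%, and Ptma with 97.6% and 67.1%. H2-D1, Ighm, S100a10 (62.3% and 59.6%), Sec61b, H3f3a (90.7% and 56.3%) and Prdx4 (60.7% and 55.7%) were next.

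Among the 27 genes with a lower share inside than outside, the acute phase gene Saa3 had the largest deficit with 4.5% inside and 39.3% outside. Smad7, an inhibitor of TGF-β signals, had 15.0% and 41.0%, Wfdc17 26.3% and 49.4%, Cdk6 16.2% and 38.4%, and Map4k4 21.1% and 39.5%. These genes were listed for the cluster although fewer of its cells were positive. The authors' fold changes were not used, so whether they were listed as genes low in the cluster was not checked. Saa3, Cdk6, Abca3, Atp1b1, Yae1d1, Abi1 and Commd7, all with a lower share inside, are counted among the 81 genes listed for no other non-hepatocyte cluster.

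T cells shared the largest number of genes with B cells. The T cell list holds 34.1% of all genes in the table, and 311 of the 511 B cell genes were on it, or 60.9% of the B cell list and 52.0% of the T cell list. Of the 1244 genes not listed for B cells, 23.1% were on the T cell list. The share was higher in B cells for 142 of the 311 and lower for 169, with a median difference of −2.1 percentage points. For 59 genes, T cells were the single other non-hepatocyte cluster.

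Kupffer cells, whose list holds 28.4% of all genes, shared 231, or 45.2% of the B cell list and 46.3% of their own, against 21.5% of the genes not listed for B cells. The share was higher in B cells for 142 and lower for 89. Neutrophils (12.9% of all genes) shared 124, or 24.3% of the B cell list and 54.9% of their own, against 8.2% of the genes not listed for B cells. That part of their own list was larger than for T cells or Kupffer cells. The red blood cell cluster (18.2%) shared 122, or 23.9% of the B cell list and 38.1% of its own, against 15.9%. Endothelial cells (5.58%) shared 35, or 6.85%. The HSC / fibroblast cluster (30.5%) shared 145, or 28.4%, fewer in proportion than the 31.4% of the genes not listed for B cells, and had the higher share for 130 of them. That cluster held an estimated 0.171% of the cells, the smallest of all 12, so its shares rest on few cells.

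Any hepatocyte cluster listed 32.7% of all genes and 97 (19.0%) of the B cell genes, against 38.3% of the other genes. Hepatocyte5 shared 59 and Hepatocyte4 53 of these, among them the ER genes above. Hepatocyte3 shared 18, all with a higher share in B cells, and Hepatocyte1 and Hepatocyte2 shared 3 and 2.

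**Figure D4:**
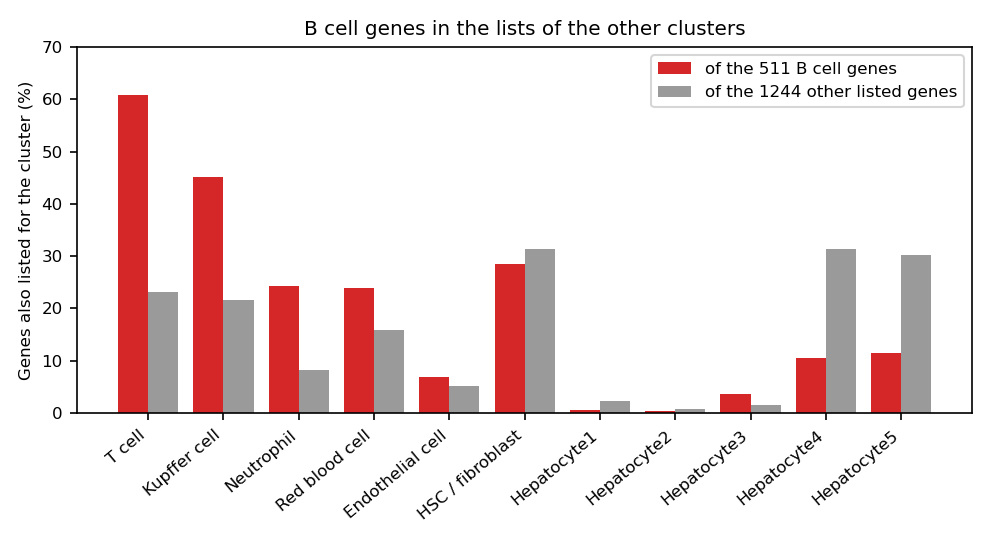
Percentage of the 511 B cell genes (red) and of the 1244 genes not listed for B cells (grey) that each other cluster lists, with bars starting at 0. The red bar exceeds the grey bar most for T cells, 60.9% against 23.1%, and falls below it for HSC / fibroblast and for Hepatocyte1, Hepatocyte2, Hepatocyte4 and Hepatocyte5.

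The number of other non-hepatocyte clusters that listed a B cell gene was 0 for 81 genes, 1 for 121, 2 for 151, 3 for 99, 4 for 49, 5 for 8 and all 6 for 2. Among the 81, 55 were listed for no other cluster of any kind, and 26 for a hepatocyte cluster as well. For the 430 shared genes, the share was highest in B cells for 116. Of the 81 genes, 29 belonged to the ER group, 9 to the transcription and chromatin proteins and 8 to the immunoglobulin and receptor chains.

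**Figure D5:**
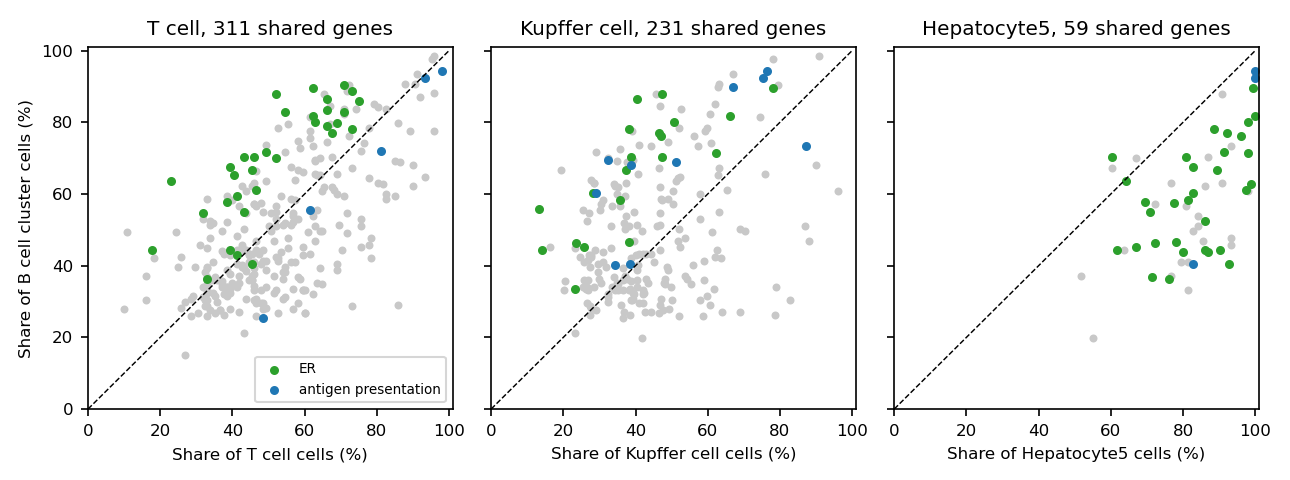
Share of positive cells in the B cell cluster (y axis, %) against that in T cells, Kupffer cells and Hepatocyte5 (x axis, %) for the genes that both clusters list, with ER genes in green and antigen presentation genes in blue. The dashed line marks equal shares. ER genes lie above it for 32 of 33 in the T cell panel and all 20 in the Kupffer cell panel, and below it for 31 of 32 in Hepatocyte5.

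Other function groups were smaller or more widely shared. The 71 signalling proteins had medians of 37.2% inside and 18.1% outside, and the 66 transcription and chromatin proteins 41.9% and 28.5%. The 41 surface proteins had 40.1% and 12.1%. Subunits of the NADPH oxidase, known from phagocytes, were also listed, Cyba with 85.0% and 40.6%, Cybb with 55.1% and 9.3%, Ncf4 with 38.1% and 4.1%, and Ncf1 with 30.4% and 2.9%. Cybb was found in 63.2% of Kupffer cells. Each of these 4 was shared with another leukocyte cluster.

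Regulators listed for B cells alone included Eaf2, an elongation factor partner of germinal centre B cells, with 53.8% inside and 19.0% outside, and Arid3a (Bright), which binds the heavy chain locus, with 40.9% and 13.7%. Of the 27 cell cycle and DNA synthesis genes, 21 were also listed for the red blood cell cluster, with the higher share there for 19.

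Markers of other cell types that a liver preparation could hold were almost absent from the list. Of 128 such genes, 77 were listed for some cluster and 2 for B cells. T and NK cell markers came to 0 of 22, although 13 were listed for T cells. Kupffer cell markers came to 1 of 18, Lyz2 with 30.4% inside and 22.9% outside. Endothelial markers came to 1 of 12, Fcgr2b, named above. Neutrophil (0 of 13), stellate cell (0 of 11), red blood cell (0 of 10), hepatocyte (0 of 25) and platelet (0 of 5) markers were not listed. Of 12 markers of dendritic cells and plasmacytoid dendritic cells, 0 were in the table at all, so that type cannot be checked from these rows. Irf8, Tcf4 and Spi1, which dendritic cells also use, were in the B cell list.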

How the data were processed

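Primary hepatocyte preparations from PBS-treated and IL-33-treated mice were measured by single-cell RNA-seq on the Chromium platform, with 1 library each, mapped to its treatment by its label. Per the submitters' processing notes the authors used Cell Ranger and mm10. Per the methods, the authors kept cells by gene number, with an upper limit against doublets, and by mitochondrial share, normalized each cell, clustered the cells with Seurat, named the clusters by hand and listed markers of each cluster. No doublet caller was run here. The methods describe a merged matrix, scaled per cell and log-transformed, and no integration step; on that scale a value above 0 is a counted UMI, but whether the shares were computed on it was not tested. Some genes were left out of the clustering by the authors. That list was not used here.

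The deposited values used here are fractions that the authors computed, namely how many of the cells in a cluster, and how many of the rest, were positive. They have 3 decimals and are given as percentages. The table also holds 3 columns of the authors' own comparisons (a log fold change, a p-value and an adjusted p-value), which were not used. The hepatocyte table was not used.

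Cluster sizes were solved by least squares from 1115 genes listed for at least 2 clusters, without forcing a total. Alternatives were least absolute deviations, other rows or genes for the sizes, and stricter limits on listing for the counts. The table holds no cell numbers and no depth, so no counting interval was computed. The members and the 21 gene lists were chosen with earlier results of these data known, and the 14 function groups after the B cell list was seen. Named genes were the 5 markers, members of the gene lists listed for B cells, the 10 genes with the largest difference, the 10 with the most positive cells in the cluster, the 10 with the highest share outside and the 5 with the largest deficit. Other genes are examples of their function groups. A few genes, and the list of B cell subset genes, are not reported here. Coordinates of all 511 genes came from GENCODE on GRCm38, the assembly also called mm10. The software was NumPy 2.4.6, SciPy 1.17.1, pandas 2.3.3 and matplotlib 3.10.9 under Python 3.11.15.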

Additional observations from a re-analysis of the deposited data

How the results depend on the processing

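The estimated size of the B cell cluster was between 2.18% and 2.19% of cells under every alternative, and the percentage of positive cells lying in the cluster moved by at most 0.052 percentage points for the 24 genes recomputed. Where a gene counted as listed only with a share inside at least 10 percentage points above that outside, 400 B cell genes remained and 78 were listed for no other non-hepatocyte cluster. Those 78 are not a part of the 81 of the main count, because the limit also shortened the lists of the other clusters. Iglc1, Jchain and Saa3, for example, were among the 81 and fell below the limit, with differences of 9.7, 8.8 and -34.8 percentage points. Under that limit the overlap was 234 with T cells and 134 with Kupffer cells (231 in the main count). With a share inside of at least 50%, 214 B cell genes remained, and 62 were listed for no other non-hepatocyte cluster. These 62 too include genes that other clusters listed in the main count. Of the 214, 108 were shared with T cells (311 in the main count) and 42 with Kupffer cells. As shares of the shortened B cell list these were 50.5% and 19.6%, against 60.9% and 45.2%; the lists of all clusters are shorter by construction. Under the limit of 10 points, 4 in place of 7 proliferation genes and 0 in place of 1 Kupffer cell marker counted as listed for B cells. No paired analysis was possible because both libraries are pooled in the table and no result comes from a test. Since the table holds no cell numbers or depth, counting error was not computed for any share.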
